A study of Mus musculus with 32 samples.

Results

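The liver of wildtype mice cloned by somatic nuclear transfer was compared with that of conventionally bred wildtype mice on 2-colour arrays hybridised with labelled cDNA. The comparison rests on 8 arrays of 32 in the series, chosen by their sample titles: 4 cloned mice, each on 2 arrays with the dyes swapped. The cloned mice and the mice of the reference pool were male, of strain 129/SvJ and 18 to 19 weeks old, and neither carried the Dll1 mutation that defines the other cohort of the study. The second channel of all 8 arrays held 1 pool of liver RNA. The labels list 4 mouse identifiers for this pool, while the labelling protocol names 6 control animals. All 4 ratios therefore share whatever is particular to the pool, and a test of their mean against 0 leaves out the spread between conventional mice. The sources used here do not give the cells and donors from which the clones were made. The 2 groups used for comparison were the livers of 4 male 129/SvJ clones of the same age of the Dll1 cohort, set against a pool of conventional Dll1 heterozygotes, and the spleens of the same 4 wildtype clones.

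Nuclear transfer asks an enucleated egg to reset the chromatin of a differentiated nucleus, and cloned animals that reach adulthood are known to differ from bred ones in some genes, with imprinted genes and placental growth as the usual examples. Most liver RNA comes from hepatocytes, which make the plasma proteins, the clotting factors, the enzymes of the urea cycle and the enzymes that clear drugs and bile acids. Acute phase proteins are part of this output, and interleukin 6 is among the signals that control them. In an organ sample, fewer cells of a type and less RNA per cell cannot be told apart. A ratio of liver over liver also holds no level, so the labelled tissue could not be checked against its markers.

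Values are ratios as deposited, taken as log2 because repeated constants lie near the log2 of a scanner's maximum, and as clone over pool from the word order of the titles. The sources used here do not say whether arrays with the clone in Cy3 had already been turned to that direction, and the readings give different results. In wildtype clone liver the constants were all positive with the clone in Cy5 (78 values) and all negative with it in Cy3 (60 values). The other groups had the same signs. How these signs relate to the turning was not tested. Over all probes the mean ratio with the clone in Cy5 and that with the clone in Cy3 correlated at -0.783 in wildtype clone liver, against -0.381 in the Dll1 livers. Arrays of the same orientation correlated at 0.445 to 0.599 in Cy5 and at 0.495 to 0.735 in Cy3. The 2 arrays of a mouse correlated at -0.715 to -0.251 (mean -0.517), and arrays of different mice and dyes at -0.646 to -0.308 (mean -0.52). After the mean of each orientation was taken away, the 2 arrays of a mouse correlated at -0.161, 0.0166, -0.161 and -0.0269 in mice 1 to 4. The highest value among the 12 pairs of different mice was 0.247, between the Cy5 array of mouse 3 and the Cy3 array of mouse 1. Whether an array belongs to another mouse than its label says was not tested. Another assignment would change the values and errors by mouse printed here, but not the mean over all 8 arrays. In the average of the 2 arrays as deposited, whatever has opposite sign in both orientations cancels; with the Cy3 arrays turned, it is all that remains. Averaging left an SD over probes of 0.0883, turning left 0.249.

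**Figure D1:**
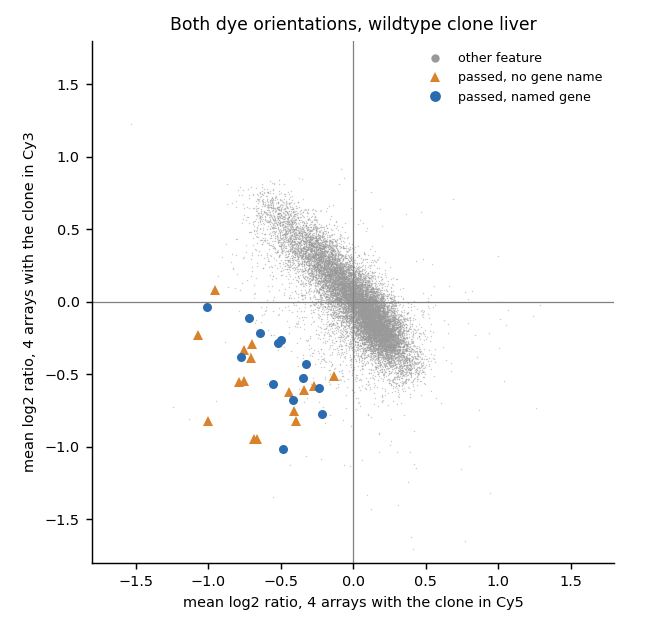
Mean log2 ratio of each feature over the 4 arrays with the clone in Cy5 (horizontal axis) and over the 4 arrays with it in Cy3 (vertical axis) in wildtype clone liver. Grey points are single features, blue circles the 13 named genes and orange triangles the 16 unnamed features that passed in the mean of both; 1 feature of 16948 lies outside the limit of 1.8. Most features follow a falling diagonal, and the features that passed lie apart from it, below 0 in both orientations with 1 exception.

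Probes of the same gene were compared under both readings. Row numbers of the value table were read 11 rows after those of the gene annotation, so that row n takes the gene of probe n-11. With that shift, 4906 pairs of probes of 1 gene (2687 genes) correlated at 0.175 in the mean of both dyes and at -0.00668 with the Cy3 arrays turned. At the 22 other shifts from 0 to 22 the correlation lay between -0.00523 and 0.0515 in the mean and between -0.0224 and 0.0557 with the arrays turned. Among pairs over 50 rows apart (4836 pairs) it was 0.161 and -0.0115. Neighbouring rows, which need not share a gene, also agreed: the mean correlated at 0.179 between rows 1 apart and 0.117 between rows 20 apart. With the Cy3 arrays turned this correlation alternated, at 0.241, 0.446, 0.164 and 0.341 for rows 1, 2, 3 and 4 apart, and was -0.0449 for rows 11 apart. Had the Cy3 arrays not been turned, the clone effect would cancel in the mean and an effect of the dye would remain. Probes of 1 gene could share either effect, so their agreement does not decide between the readings. Genes named in the text are described in the mean of both dyes. Both orientations are given for those that passed and where they differ most.

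**Figure D2:**
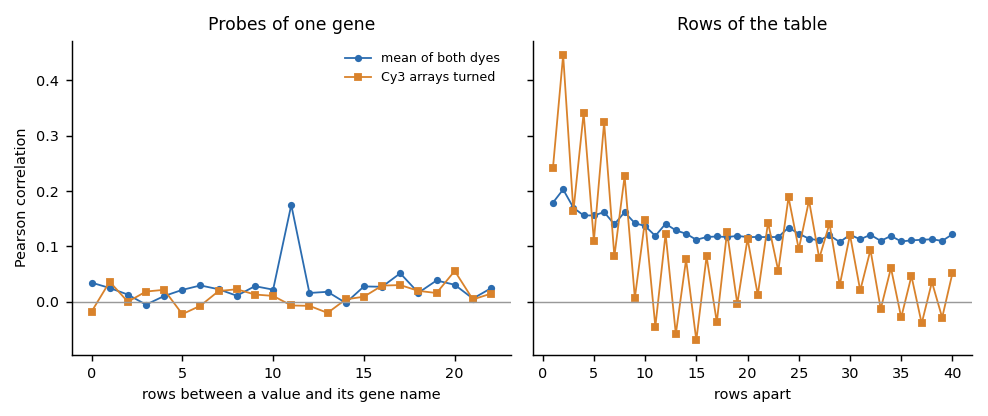
Pearson correlation (vertical axis) in wildtype clone liver of the mean log2 ratios of probes of 1 gene, by the number of rows between a value and its gene name (left), and of rows of the table, by how many rows apart they are (right). Blue circles give the mean of both dyes and orange squares the values with the Cy3 arrays turned. The mean peaks at 11 rows, at 0.175, where the turned values lie at -0.00668; at right the turned values alternate between odd and even distances.

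In the mean of both dyes, 13 named genes were lower in the livers of wildtype clones and none was higher. Hba-a1, an alpha chain of haemoglobin, H3f3a, which encodes the histone variant H3.3, and Fga, the alpha chain of fibrinogen, were among them. In all, 29 of 16948 features passed an adjusted p of 0.05 (0.171%), 0 higher and 29 lower, by limma with Benjamini-Hochberg adjustment over all features. Of these, 16 had no gene name, and the 3 smallest adjusted p-values (0.00372) belonged to unnamed features at -0.82, -0.67 and -0.54. At an unadjusted p under 0.05 the count was 2054, with 1040 higher and 1014 lower. The means of the 29 lay between -0.91 and -0.32, where the median SD between mice over all features was 0.0865. Of the 29, all lay below 0 in the Cy5 mean and 28 in the Cy3 mean. On all 8 arrays 21 lay below 0, as 94 of 16892 features did (0.556%). The 29 were picked by the mean of these same arrays, so their signs there are no separate support. The count depended on which mice were used: 8 features passed without mouse 1, 6 without mouse 2, 0 without mouse 3 and 58 without mouse 4. The means of the 13 named genes moved by at most 18.9% without any 1 mouse. Hba-a1 lay between -0.61 and -0.50 and Cth between -0.43 and -0.38. These genes passed through means of the same mice, so small changes are no separate support. The highest limma adjusted p of each without 1 mouse ranged from 0.194 for Cth to 0.35 for Mmp7 and Ucma. With arrays scaled to one spread 1 passed, and without limma's moderation 0 did. For 1 gene alone the 4 mice cannot go below p = 0.125 in a two-sided exact permutation test of signs.

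Haemoglobin alpha had the most probes among the named genes that passed. Hba-a1 lay at -0.76, -0.56, -0.53 and -0.41 in mice 1 to 4. All 4 mice were below 0, mouse 1 farthest. It fell by 0.56 (limma's SE 0.057, adjusted p = 0.0168, n = 4 mice), with -0.56 in Cy5 and -0.57 in Cy3, and its 8 arrays ranged from -0.90 to -0.29. Its 6 probes lay at -0.22, -0.72, -0.43, -0.70, -0.45 and -0.85, so no probe carried the value alone. Hba-a1 has a near-identical neighbour in Hba-a2, and the probes need not separate them. Other genes of red cells lay nearer 0. Of 14 erythroid genes 7 lay below 0, with a median of -0.003 against 0.008 for all features, and Hba-a1 was the only one that passed. Slc4a1, the anion exchanger of the red cell membrane, lay at -0.078 and Alas2, the first enzyme of haem synthesis in red cells, at 0.059. Fech, the last enzyme of that pathway, lay at 0.070 and Rhd, a blood group protein, at 0.14, and none of these passed.

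**Figure D3:**
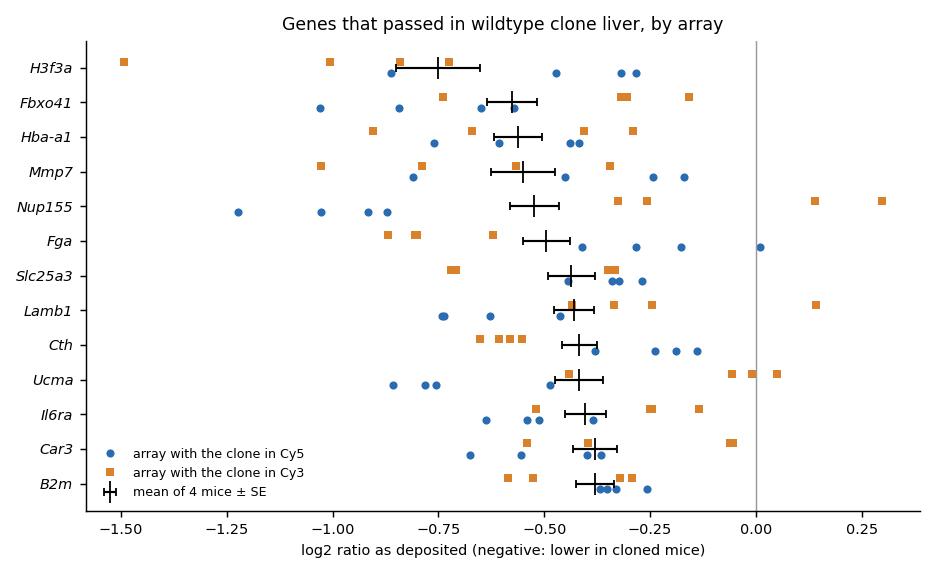
Log2 ratios as deposited (horizontal axis; negative values are lower in cloned mice) of the 13 named genes that passed, on each of the 8 arrays. Blue circles are arrays with the clone in Cy5, orange squares those with it in Cy3, and black marks the mean of 4 mice with its SE. All arrays lie below 0 for 9 of the 13 genes; Fga, Lamb1, Ucma and Nup155 have arrays above 0.

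Cth, cystathionine gamma-lyase, makes cysteine from cystathionine and is strongly expressed in liver. It lay at -0.40, -0.38, -0.52 and -0.37 in mice 1 to 4, with mouse 3 lowest and the other 3 close together. It fell by 0.42 (SE 0.041, adjusted p = 0.0168) and was below 0 on 8 of 8 arrays, at -0.24 in Cy5 and -0.60 in Cy3. Slc25a3, the phosphate carrier of the inner mitochondrial membrane, lay at -0.53, -0.31, -0.58 and -0.33. It fell by 0.44 (SE 0.055, adjusted p = 0.0343), again below 0 on all 8 arrays, at -0.34 in Cy5 and -0.53 in Cy3. Car3, a carbonic anhydrase abundant in rodent liver, lay at -0.47, -0.47, -0.37 and -0.21, with mouse 4 nearest 0. It fell by 0.38 (SE 0.052, adjusted p = 0.0473), at -0.50 in Cy5 and -0.26 in Cy3, and its 3 probes lay at -0.19, -0.52 and -0.43.

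H3f3a lay at -1.18, -0.50, -0.58 and -0.74 in mice 1 to 4, the largest mean among the named genes that passed. It fell by 0.75 (SE 0.099, adjusted p = 0.0422), at -0.48 in Cy5 and -1.02 in Cy3, and mouse 1 stood lowest in both orientations. H3f3b encodes the same protein from another gene and lay at -0.13 (SE 0.043, adjusted p = 0.314), below 0 on all 8 arrays. Nup155, a scaffold protein of the nuclear pore, lay at -0.68, -0.57, -0.54 and -0.31 and fell by 0.52 (SE 0.059, adjusted p = 0.0217). Its orientations differed: -1.01 in Cy5, and -0.036 in Cy3 where mice 3 and 4 were above 0. Over the whole nuclear pore list 6 of 14 lay below 0 with a median of 0.027, and Nup155 alone passed.

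B2m, the light chain of class I molecules of the major histocompatibility complex, lay at -0.45, -0.47, -0.33 and -0.28 in mice 1 to 4. It fell by 0.38 (SE 0.046, adjusted p = 0.0288) with little between the dyes, at -0.33 in Cy5 and -0.43 in Cy3. Of 11 genes of antigen presentation 7 lay below 0, with a median of -0.019. Tap1, which carries peptides to class I molecules, lay at -0.30 (SE 0.052, adjusted p = 0.104), and Cd74, the invariant chain of class II, at -0.14 (adjusted p = 0.283). Ifi30, a reductase that prepares antigens in lysosomes, lay at 0.15 (adjusted p = 0.314). Interferon response genes were spread around 0: 10 of 19 lay below 0 and the median was -0.003.

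Fbxo41, Lamb1, Mmp7 and Ucma passed too and have roles outside these groups. Fbxo41, which encodes an F-box protein, lay at -0.69, -0.36, -0.57 and -0.67 and fell by 0.58 (SE 0.059, adjusted p = 0.0168), at -0.77 in Cy5 and -0.38 in Cy3. Lamb1, a laminin chain of basement membranes, lay at -0.30, -0.45, -0.54 and -0.44 and fell by 0.43 (SE 0.047, adjusted p = 0.0197), at -0.64 in Cy5 and -0.22 in Cy3, with 1 Cy3 array above 0. Mmp7, a matrix metalloproteinase, lay at -0.52, -0.74, -0.69 and -0.26 and fell by 0.55 (SE 0.075, adjusted p = 0.0473), at -0.42 in Cy5 and -0.68 in Cy3. Ucma, a matrix protein known from cartilage, lay at -0.61, -0.27, -0.43 and -0.35 and fell by 0.42 (SE 0.057, adjusted p = 0.0473), almost all of it in Cy5 (-0.72 against -0.11). In each of these 4 genes every mouse was below 0.

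Genes of plasma proteins made by hepatocytes lay lower together, although none passed. All 20 measured of the 30 listed had a mean below 0, where 45.1% of all features did, and their median was -0.16 against 0.008 for all features. In 14 of the 20 all 4 mice were below 0 (70.0%, against 9% of all features), and 13 had an unadjusted p under 0.05. Alb, serum albumin, lay at -0.62, -0.26, -0.34 and -0.09 in mice 1 to 4, with a mean of -0.33 (SE 0.077, adjusted p = 0.221), below 0 on 8 of 8 arrays. Vtn, vitronectin, lay at -0.36, -0.19, -0.31 and -0.072 (mean -0.23, SE 0.054, adjusted p = 0.216). Ttr, the carrier of thyroid hormone and retinol-binding protein, had a mean of -0.23 (SE 0.050, adjusted p = 0.206). Apoa1, the main protein of high-density lipoprotein, had -0.18 (SE 0.042, adjusted p = 0.219), at 0.037 in Cy5 and -0.40 in Cy3.

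The mice differed in this list. Its median was -0.30 in mouse 1, -0.14 in mouse 2, -0.18 in mouse 3 and -0.053 in mouse 4. By orientation it was -0.14 in Cy5 and -0.19 in Cy3, with 13 of 20 genes below 0 in each. Without mouse 1 the median was -0.11 and without mouse 4 it was -0.20. With the Cy3 arrays turned the median became 0.056, with 6 genes higher and 5 lower past the threshold. Under that reading 57% of all features passed, so this count is not particular to the list. In the Dll1 livers 19 of the 20 lay below 0, with a median of -0.099, and in the wildtype spleens 7 of 20, with a median of 0.077. Of all features 8786 of 16900 lay below 0 in the Dll1 livers and 7657 of 16445 in the spleens.

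**Figure D4:**
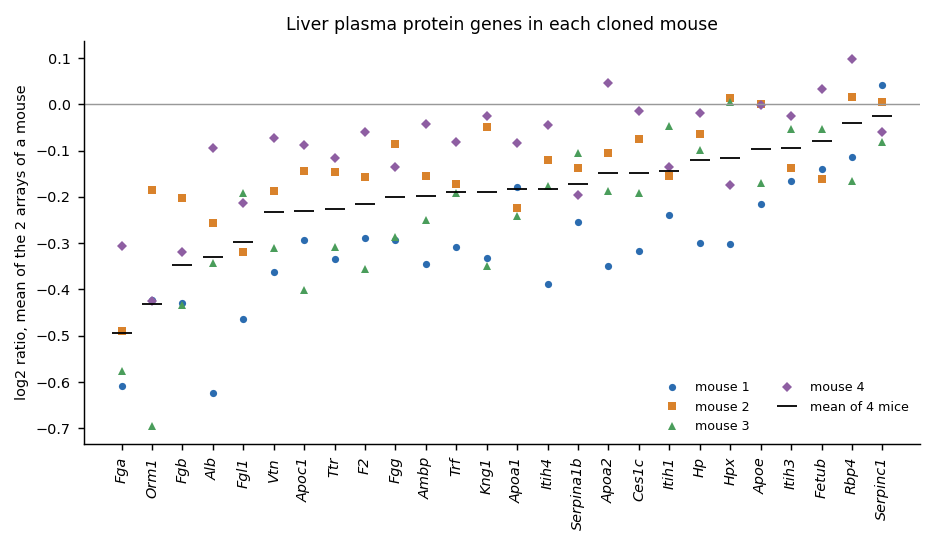
Log2 ratio of each cloned mouse, the mean of its 2 arrays (vertical axis), for the 20 plasma protein genes and for Fga, Fgb, Fgg, Fgl1, F2 and Orm1, ordered by their mean. Symbols mark the 4 mice and black bars the mean. Fga lies lowest, at -0.49, and Serpinc1 nearest 0, at -0.024; mouse 1 is mostly lowest and mouse 4 mostly nearest 0.

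Fga and Fgb, chains of fibrinogen, stood lowest among the clotting genes. Fibrinogen has an alpha, a beta and a gamma chain, made from neighbouring genes by hepatocytes, and interleukin 6 raises all of them in the acute phase. Fga lay at -0.61, -0.49, -0.58 and -0.31 in mice 1 to 4 and fell by 0.49 (SE 0.055, adjusted p = 0.0197). All 4 mice were below 0, mouse 4 nearest to it, but the dyes differed: -0.22 in Cy5, where mouse 4 was at 0.009, and -0.77 in Cy3. Fgb lay at -0.43, -0.20, -0.43 and -0.32, with a mean of -0.35 (SE 0.049) just outside the threshold at adjusted p = 0.0514, and below 0 on all 8 arrays. Fgg lay at -0.29, -0.086, -0.29 and -0.14, with a mean of -0.20 (SE 0.048, adjusted p = 0.232), all of it in Cy3 (0 in Cy5 and -0.40 in Cy3). Fgl1, a fibrinogen-like protein secreted by hepatocytes, lay at -0.30 (SE 0.052, adjusted p = 0.113), at -0.001 in Cy5 and -0.59 in Cy3. Of 14 clotting genes 13 lay below 0, with a median of -0.089, and Fga was the only one that passed. Here the dyes differed: the median was -0.008 in Cy5, with 9 of 14 below 0, and -0.30 in Cy3, with 11 below 0. Fga turned to 0.28 (adjusted p = 0.00108) when the Cy3 arrays were turned, and the list's median to 0.19.

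Because the 3 fibrinogen chains are known to be controlled together, the 250 bases before the start of each gene are shown from RefSeq (GRCm38.p6), on the strand of the gene. Capitals mark CTGGGAA, a core of interleukin 6 response elements, and GTTAAT, a core bound by the hepatocyte factor HNF1, searched on both strands; ATTAAC is the latter on the reverse strand.
Fga, chr3:83025903-83026152, plus strand: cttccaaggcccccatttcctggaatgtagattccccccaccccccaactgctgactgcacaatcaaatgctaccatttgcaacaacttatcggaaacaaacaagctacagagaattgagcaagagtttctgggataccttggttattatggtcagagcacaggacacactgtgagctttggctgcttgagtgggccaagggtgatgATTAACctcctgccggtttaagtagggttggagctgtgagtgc
Fgb, chr3:83049864-83050113, minus strand: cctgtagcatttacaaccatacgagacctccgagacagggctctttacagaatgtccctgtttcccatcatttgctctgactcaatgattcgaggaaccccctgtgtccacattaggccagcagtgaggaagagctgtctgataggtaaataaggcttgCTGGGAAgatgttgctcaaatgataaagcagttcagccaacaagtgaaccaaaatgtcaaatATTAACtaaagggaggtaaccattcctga
Fgg, chr3:83007474-83007723, plus strand: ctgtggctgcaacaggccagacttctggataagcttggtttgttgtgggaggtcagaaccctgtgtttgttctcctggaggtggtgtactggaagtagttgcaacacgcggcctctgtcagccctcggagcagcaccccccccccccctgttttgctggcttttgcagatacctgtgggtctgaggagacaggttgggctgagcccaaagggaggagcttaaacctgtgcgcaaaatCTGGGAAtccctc
CTGGGAA stood before Fgb and Fgg and GTTAAT before Fga and Fgb. Among 32851 such windows before gene starts 9.1% held the former and 6.43% the latter. A match is a description of the letters and not a binding site.

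The wider acute phase list lay lower as well. Of its 20 measured genes 18 were below 0, with a median of -0.15, and 2 passed, both lower: Fga and Il6ra. Il6ra, the receptor chain that binds interleukin 6, lay at -0.52, -0.39, -0.44 and -0.26 in mice 1 to 4. It fell by 0.40 (SE 0.049, adjusted p = 0.0288) and was below 0 on all 8 arrays, at -0.52 in Cy5 and -0.29 in Cy3. Orm1, the acid glycoprotein orosomucoid, lay at -0.42, -0.18, -0.69 and -0.42 (mean -0.43, SE 0.073, adjusted p = 0.0937). This list shares Fga, Fgb, Fgg and Fgl1 with the clotting list and Hp, Hpx and Itih4 with the plasma protein list, so their counts are not separate. Its median was -0.13 in each orientation and 0.094 with the Cy3 arrays turned.

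Among 17 genes of the urea cycle and amino acid breakdown 13 lay below 0, with a median of -0.10, and Cth alone passed. By orientation the median was -0.21 in Cy5, with 11 below 0, and -0.002 in Cy3, with 9 below 0. Uroc1, urocanate hydratase of histidine breakdown, was the tightest: -0.23, -0.24, -0.27 and -0.23 in the 4 mice, a mean of -0.24 (SE 0.037, adjusted p = 0.0668), below 0 on all 8 arrays. Tat, tyrosine aminotransferase, lay at -0.31 (SE 0.059, adjusted p = 0.152), with -0.80 in Cy5 and 0.19 in Cy3. Arg1, the arginase that closes the urea cycle, lay at -0.18 (SE 0.039, adjusted p = 0.207), with -0.35 in Cy5 and -0.002 in Cy3. All 8 measured genes of bile acid synthesis and transport were below 0, with a median of -0.12 and no call, but the dyes disagreed on them. Their median was 0.17 in Cy5, with 1 below 0, and -0.38 in Cy3, with 7 below 0. Cyp7b1 and Cyp27a1, hydroxylases of the alternative bile acid route, lay at -0.13 (adjusted p = 0.284) and -0.14 (adjusted p = 0.346).

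Other hepatocyte functions lay nearer the median of all features. Of 17 cytochrome P450 and conjugation genes 12 lay below 0, but the median was -0.018; Gstp1 and Gstm1, glutathione transferases, lay at -0.26 (adjusted p = 0.199) and -0.21 (adjusted p = 0.233). Fatty acid and cholesterol synthesis genes lay at a median of -0.014 (8 of 15 below 0), and fatty acid oxidation and ketogenesis at -0.021 (10 of 14). Genes of gluconeogenesis, glycogen and glycolysis had a median of -0.024 (8 of 11). Transcription factors of hepatocytes had -0.008 (7 of 11), and Cebpa, which drives many hepatocyte genes, lay at -0.17 (adjusted p = 0.329). In the IGF and growth hormone axis 7 of 15 lay below 0, with a median of 0.008. Its lowest member was Igfbp2, a binding protein of insulin-like growth factors, at -0.31 (SE 0.067, adjusted p = 0.194) and below 0 on all 8 arrays. None of these lists had a call.

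**Figure D5:**
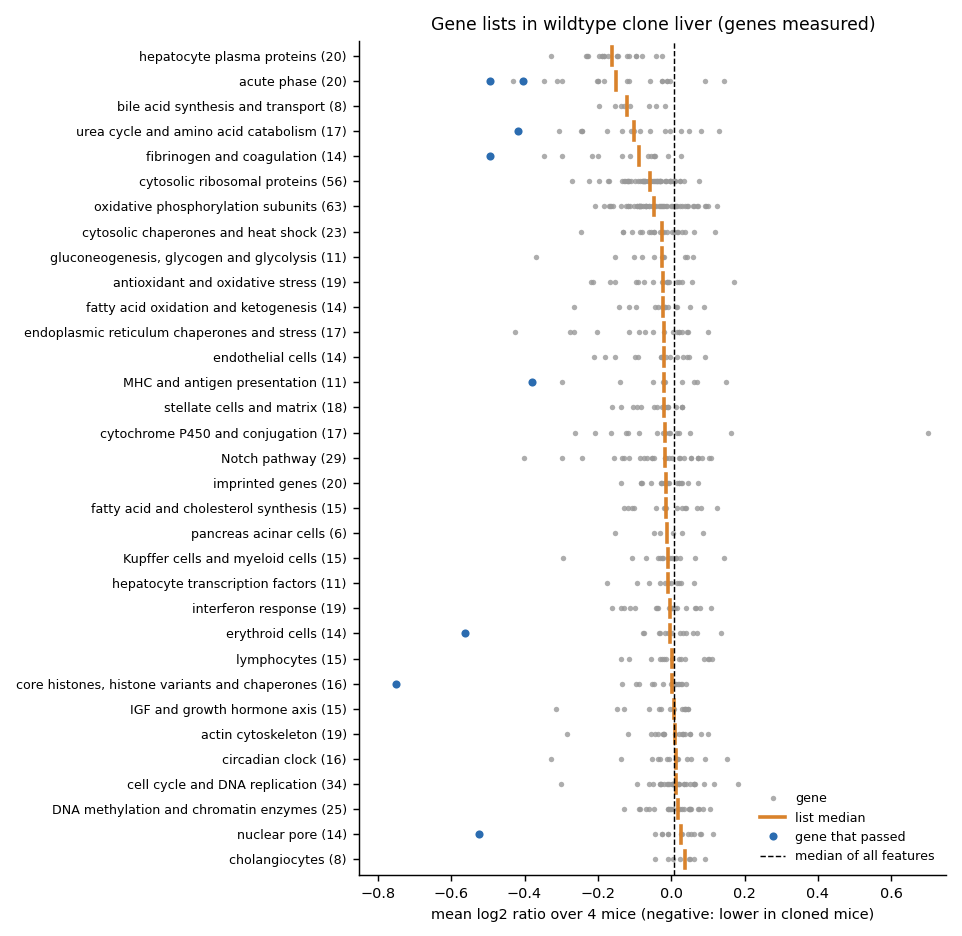
Mean log2 ratio over 4 mice (horizontal axis; negative values are lower in cloned mice) of the measured genes of each of 33 lists (number of genes in brackets), ordered by list median. Grey points are genes, blue points the genes that passed, orange bars the list medians and the dashed line the median of all features, 0.008. Plasma proteins, acute phase, bile acid, amino acid and clotting genes have the lowest medians, from -0.16 to -0.089; the point at 0.70 is Sult1a1, measured in 3 mice and at 2.44 in mouse 1.

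Ribosomal and mitochondrial genes lay slightly below 0 in large number. Of 56 cytosolic ribosomal protein genes 48 lay below 0 (85.7%), with a median of -0.057 and values from -0.27 to 0.077. Of 63 subunits of oxidative phosphorylation 44 lay below 0, with a median of -0.047, and neither list had a call. Rps28 and Rpl39 were at -0.27 (adjusted p = 0.233) and -0.23 (adjusted p = 0.231), and Cox6b1, a subunit of cytochrome oxidase, at -0.21 (adjusted p = 0.236). Chaperones of the endoplasmic reticulum split: their median was -0.021 with 9 of 17 below 0, while Hsp90b1 lay at -0.43 (SE 0.082, adjusted p = 0.156; -0.79 in Cy5 and -0.065 in Cy3) and Hspa5 at -0.28 (SE 0.049, adjusted p = 0.119). Both fold secreted proteins, and Hspa5 was below 0 on 8 of 8 arrays. Of 23 cytosolic chaperones 15 and of 19 antioxidant genes 14 lay below 0, with medians of -0.026 and -0.022. Actb, cytoplasmic beta-actin, lay at -0.28, -0.21, -0.35 and -0.30 in mice 1 to 4, with a mean of -0.28 (SE 0.041) just outside the threshold (adjusted p = 0.0514). The whole actin cytoskeleton list had a median of 0.009, with 9 of 19 below 0.

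Gene groups often examined in cloned animals had medians near that of all features. Of 20 imprinted genes 13 lay below 0, with a median of -0.015, a range of -0.14 to 0.072 and no call, nor any at an unadjusted p under 0.05. Slc38a4, an amino acid transporter, lay at -0.083 (SE 0.040, adjusted p = 0.447), Dcn, decorin, at -0.14 (SE 0.083, adjusted p = 0.536) and Nnat, neuronatin, at 0.072 (SE 0.051, adjusted p = 0.595). Of 25 enzymes of DNA methylation and chromatin 11 lay below 0, with a median of 0.018 and values from -0.13 to 0.11. Among 16 histones, variants and histone chaperones the median was 0.003, with 8 below 0, and H3f3a alone passed. Cell cycle and replication genes had a median of 0.013, with 12 of 34 below 0. Their lowest member, the kinase gene Cdk2, lay at -0.29, -0.32, -0.42 and -0.18 (mean -0.30, SE 0.047, adjusted p = 0.0694). Clock genes had a median of 0.012, and Npas2, a clock transcription factor, lay at -0.33 (SE 0.073, adjusted p = 0.207).

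Markers of most other liver cells lay nearer 0 than those of hepatocytes, with endothelial cells as the exception. The 4 measured of 6 hepatocyte markers (Ttr, Apoa1, Alb and Trf) lay between -0.33 and -0.18, with a median of -0.21. The 3 endothelial markers Cdh5, Kdr and Pecam1 lay between -0.21 and -0.15, with a median of -0.18 and no call. Over the whole endothelial list 9 of 14 lay below 0, with a median of -0.021. Kupffer cell markers lay at -0.024 to 0.065 (Marco, Cd5l and Clec4f), although Cd163, a scavenger receptor of macrophages, lay at -0.24, -0.28, -0.41 and -0.25 (mean -0.29, SE 0.043, adjusted p = 0.0567). Stellate markers lay at -0.14 to -0.01, bile duct markers at -0.01 to 0.024 and the lymphocyte markers Ptprc and Cd3e at -0.015 and 0.002. The pancreas marker Cela2a lay at -0.047. As ratios these values give no share of a cell type, and their part in the shift of the hepatocyte lists was not tested.

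Dll1, a Notch ligand, is wildtype in these mice and their pool. It lay at 0.091, -0.26, -0.55 and -0.90 in mice 1 to 4, with a mean of -0.40 (SE 0.13, adjusted p = 0.329), so mouse 1 was above 0 and mouse 4 far below. Its 2 probes differed, at -0.044 and -0.76. On the Cy5 array of mouse 4 the gene read -1.92 and on its Cy3 array 0.13. In the Dll1 livers it lay at -0.075, and the difference was -0.33 (SE 0.20, adjusted p = 0.934). Of 29 Notch pathway genes 17 lay below 0, with a median of -0.018 and no call. The target genes Hes5, Hey2 and Hey1 lay at -0.30 (adjusted p = 0.283), -0.24 (adjusted p = 0.283) and -0.16 (adjusted p = 0.333).

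No gene passed above 0. The 8 named genes of smallest p there were Lypd4, Hsd11b2, Il18r1, Prkacb, Cilk1, Tssk6, Tlr12 and Pitpnb, with adjusted p-values from 0.0673 to 0.198. Lypd4, a member of the Ly6 family, lay at 0.27, 0.22, 0.28 and 0.21 in mice 1 to 4. Its mean was 0.25 (SE 0.038, adjusted p = 0.0673), above 0 on 8 of 8 arrays and alike in both dyes (0.26 and 0.24). Hsd11b2, which inactivates glucocorticoids, lay at 0.26 (SE 0.047), of which 0.55 in Cy5 and -0.034 in Cy3. Prkacb, a catalytic subunit of protein kinase A, had 2 probes at 0.067 and 0.37. Over all features 74 lay above 0 on all 8 arrays (0.438%), against 94 below.

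Each dye orientation taken alone gave far more calls than their mean. With the clone in Cy5, 6106 features passed (36%), 3111 higher and 2995 lower. With the clone in Cy3, 7841 passed (46.3%), 3674 higher and 4167 lower. Of the former 5862 (96%) and of the latter 7445 (95%) had the opposite sign in the other orientation. The share of all features with opposite signs is not given here. Over all probes the means of the orientations correlated at -0.783, so opposite signs need not be particular to the features that passed. With the Cy3 arrays turned 9668 passed (57%), 5402 higher and 4266 lower. Each orientation holds the effect of the dye and that of cloning together, and these cannot be told apart within it. Of the 29 features lower in the mean, 16 also passed with the arrays turned, 7 of them above 0. Among the named genes, Cth (0.18), Fga (0.28) and H3f3a (0.27) passed above 0 under that reading. Mmp7 (0.13), Slc25a3 (0.092), B2m (0.052) and Hba-a1 (0.006) were above 0 there and did not pass, with adjusted p-values from 0.127 to 0.945.

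The genes with the largest turned values were not those that passed in the mean. The lowest with 1 sign in all mice was Cela3b, a pancreatic elastase, at -1.38, with -1.54 in Cy5 and 1.23 in Cy3, while its mean of both dyes was -0.15. Eif2a, Rrad, Slc13a4, Dap3 and Ndufb9 followed at -0.84 to -0.75, and their means of both dyes lay between -0.056 and 0.007. On the other side Myom1 (1.06), Ncam2 (0.86), Elk4 (0.81), Casp6 (0.78), Timm29 (0.72) and Maged2 (0.66) led. Single arrays carried much of several of these values: Maged2 read 4.24 on the Cy5 array of mouse 1. On the Cy3 array of mouse 2 Elk4 read -4.26, Ncam2 -3.50, Myom1 -3.34, Casp6 -2.81 and Timm29 -2.61, and Cela3b read -3.87 on the Cy5 array of mouse 4.

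The wildtype and Dll1 clone livers were compared to ask whether the shift depended on the cohort, each against its own pool. Of 16900 features 0 differed by limma (0%), with 826 at an unadjusted p under 0.05, 533 higher and 293 lower in wildtype. Their mean ratios correlated over probes at 0.317. Of the 13 named genes that passed in wildtype liver 12 also lay below 0 in the Dll1 livers, where 8786 of 16900 features did. Slc25a3 was the exception: it lay at -0.44 in wildtype and 0.27 in Dll1 clones, a difference of -0.71 (SE 0.15, adjusted p = 0.934). Cth lay at -0.42 and -0.39 (difference -0.029, SE 0.097), and Fbxo41 at -0.58 and -0.53 (difference -0.043, SE 0.094). Fga lay at -0.49 and -0.24 (difference -0.25, SE 0.091) and Hba-a1 at -0.56 and -0.33 (difference -0.24, SE 0.10). Car3 lay at -0.38 in wildtype and -0.007 in Dll1 clones (difference -0.37, SE 0.15). All these differences had adjusted p-values from 0.934 to 0.977, which does not show that the cohorts were alike. The smallest p among genes lower in wildtype included Renbp, Slc25a3, Fgf2, Pkig and Cdk2; Cdk2 lay at -0.30 against 0.005.

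Several of the lists lowest in wildtype liver also had medians below 0 in the Dll1 livers. These were -0.11 for acute phase, -0.060 for clotting, -0.062 for amino acid breakdown and -0.058 for bile acid genes, where all features had -0.004. Fatty acid oxidation and ketogenesis (0.055, 5 of 14 below 0) and fatty acid and cholesterol synthesis (0.026, 6 of 15 below 0) lay above it. Ribosomal proteins had -0.070, with 45 of 56 below 0. Oxidative phosphorylation had -0.054, with 49 of 63 below 0. Of all features 8786 of 16900 lay below 0 in the Dll1 livers. The Dll1 pool holds other animals than the wildtype pool, per the labels.

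Spleens of the same 4 wildtype clones gave the contrast between organs. In the liver, 19 of 16445 features (0.116%) differed from the spleen by limma: 9 lay higher and 10 lower, and 12 carried gene symbols. The mice are the same in both organs, and with the mouse as a block 0 differed, with the smallest adjusted p at 0.492. With any 1 of the 4 mice left out, 0 passed. B2m was the gene among them that had also passed in liver: it lay at -0.38 in liver and 0.45 in spleen, a difference of -0.83 (SE 0.10, adjusted p = 0.0478). For the other 11 the liver lay between -0.14 and 0.090, and the spleen lay farther from 0. Lyz2, the lysozyme of myeloid cells, lay at -0.010 in liver and 0.76 in spleen, and Cd74 at -0.14 and 0.52. Ms4a1, a surface protein of B cells, lay at 0.090 and 0.71, and Cd28 of T cells at -0.14 and 0.60. In the other direction Rrm2, a subunit of ribonucleotide reductase, lay at 0.061 in liver and -0.71 in spleen, and Dek, a chromatin protein, at 0.022 and -0.84. With the Cy3 arrays turned, the differences of Dek (-0.54, adjusted p = 0.00672), Ctse (-0.57, 0.0138), Uck1 (-0.46, 0.0142) and Rrm2 (-0.34, 0.0164) had the opposite sign and passed. Under that reading Ms4a1 (-0.80, adjusted p = 0.00334), Cd28 (-0.36, 0.0167) and Atp13a2 (0.78, 0.0295) kept their sign and passed. The differences of B2m (-0.088), Cd74 (-0.073), Lyz2 (0.049), Fcsk (-0.31) and Tub (-0.26) did not pass. In all, 3837 features passed under that reading. Hba-a1 lay below 0 in both organs, at -0.56 and -0.37 (difference -0.19, SE 0.15, adjusted p = 0.685).

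The features that passed were not spread evenly over the value table. Of their 36 probes 13 lay in a stretch of 388 neighbouring probes, which is 1.88% of those tested, and 14 among the last 1716 probes, which are 8.34%. The first of these stretches contains 5 of the 6 probes of Hba-a1, the B2m probe and 7 of the 16 unnamed features. The only probes of Fbxo41, Lamb1, Nup155, Il6ra, H3f3a, Ucma and Mmp7 lie among the last 1716. A probe each of Hba-a1 and Car3 and the Dll1 probe at -0.76 lie there too. Both stretches had a wider spread of means than the rest of the table, with SDs of 0.153 against 0.0865 and 0.139 against 0.0797, while their medians were 0.024 and -0.03. The limits of these stretches were chosen after the values were seen, and what the rows share on the array was not tested. With a running median over neighbouring rows taken from each array 21 features passed, all among the 29. Of the 13 named genes 6 still passed and 7 did not: Fbxo41 (-0.36, adjusted p = 0.273), Il6ra (-0.26, 0.196), Lamb1 (-0.26, 0.104), Mmp7 (-0.40, 0.104), Car3 (-0.37, 0.0644), H3f3a (-0.70, 0.0644) and Ucma (-0.41, 0.0605).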

How the data were processed

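Liver RNA of cloned mice and of pooled conventional mice was labelled with Cy5 and Cy3 as cDNA and hybridised to 2-colour arrays. The authors deposited 1 ratio per row and array over 20794 rows, read here as log2 from the values; the base, background correction and normalization are not stated in these sources. Ratios hold no intensity, and the precision is limited by 4 mice, 2 arrays each, and 1 shared pool. Values beyond 9 in size, which repeat as constants, were taken as missing (11 to 29 an array). A further 59 to 95 values an array were already missing as deposited. The 2 arrays of a mouse were averaged as deposited, and the mean of 4 mice was tested against 0 with limma 3.58.1 in R 4.3.3, with Benjamini-Hochberg adjustment at 0.05 over all features. A gene is the mean of its probes measured in all 4 mice, or in at least 3 where none is; probes without a name stayed single features. With the 11-row shift 12760 rows had a gene symbol from the platform annotation and 8034 had none. Named were the genes that passed, up to 8 with the smallest p on each side, up to 4 of smallest p in each of 33 lists, Dll1, and the extremes of the turned reading and of the comparisons with Dll1 livers and spleens; other genes named were chosen after their values were seen. The members and lists were chosen with earlier results of these data known. Liver and spleen of a number are the same animal per the labels; their deviations correlated at 0.0139 to 0.11, and the fit was repeated with the mouse as a block. Alternatives covered dye orientation, constants, centring, scaling, probes, names, moderation and single mice; a running median over rows was added after seeing the data. Promoter sequences are RefSeq's, GRCm38.p6.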

Additional observations from a re-analysis of the deposited data

Results flagged for a closer look

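Differences between liver and spleen of the same wildtype clones (each against its own pool) passed for 12 named genes, with adjusted p-values from 0.0478 to 0.049 by limma. Liver minus spleen was 0.97 for Fcsk, 0.86 for Dek, 0.77 for Rrm2, 0.74 for Atp13a2, 0.72 for Ctse, 0.70 for Uck1 and 0.62 for Tub. It was -0.83 for B2m, -0.77 for Lyz2, -0.74 for Cd28, -0.65 for Cd74 and -0.62 for Ms4a1. In the fit with the mouse as a block none passed. With the Cy3 arrays turned the sign was opposite for Dek (-0.54), Ctse (-0.57), Uck1 (-0.46), Rrm2 (-0.34), Fcsk (-0.31), Tub (-0.26) and Lyz2 (0.049). It was the same for Atp13a2 (0.78), Ms4a1 (-0.80), Cd28 (-0.36), B2m (-0.088) and Cd74 (-0.073). Dek, Ctse, Uck1, Rrm2, Atp13a2, Ms4a1 and Cd28 passed under that reading.

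In 17 of 165 named genes with 4 values (10.3%) the value of 1 mouse stood far from the other 3. Chance marks about 1 in 20 groups that were not picked by their values. Most of these genes were picked by their values, so that rate is no measure for them. The share over all features is not given here. Mouse 1 stood apart at 2.18 for Maged2, -0.32 for Acads and -0.05 for Fech. Mouse 2 did so at -1.99 for Elk4, -1.20 for Timm29, -0.26 for Aurkb and 0.04 for Cd81. Mouse 3 did so at -0.52 for Cth, -0.23 for Acacb, -0.18 for Fcgr2b, -0.02 for Dhx58, 0.19 for Tagln2 and 0.32 for Cilk1. Mouse 4 did so at -0.01 for H2ax and Herpud1, -0.04 for Pkig and 0.06 for Hsd3b7.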

How the results depend on the processing

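The count of 29 features moved with most settings. It was 9668 with the Cy3 arrays turned, 6106 with the clone in Cy5 alone and 7841 in Cy3 alone. With single arrays, a dye term and the mouse as a random block it was 105. In that fit the arrays of a mouse correlated at -0.154, which makes the error of the mean smaller than for independent arrays. The count was 15 with both livers in 1 fit, of which 13 were among the 29, and 0 with all 4 groups in 1 fit. It was 16 with the constants kept, 1 with arrays scaled to one spread, 51 with each probe apart, 18 with 1 array of a mouse allowed, 53 with robust moderation and 0 without moderation. Leaving out 1 mouse gave 0 to 58. The count was 32 with names read without a shift, and 25 and 38 with names 10 and 12 rows earlier. By name, 8, 6 and 4 of these were among the 29. With the Cy3 arrays turned Cth became 0.18, Hba-a1 0.006, Fga 0.28, B2m 0.052, Slc25a3 0.092, H3f3a 0.27 and Mmp7 0.13, and the 2 differences counted 7087 (Dll1 liver) and 3837 (spleen). The 19 features that differed from spleen became 0 with arrays scaled and 0 without any 1 mouse. As paired organs, with the replicate block, 0 differed from spleen, and 0 differed from Dll1 liver with or without a block by number. The median of the plasma protein list was -0.16, lay between -0.20 and -0.11 without 1 mouse, at -0.18 with arrays scaled and at 0.005 with names read without a shift. The cause of these changes was not tested.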
